A study of Homo sapiens with 3 samples.

Results

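The translation initiation factors (symbols EIF) and elongation factors (EEF) were described across 3 RNA sequencing libraries of the human bile duct cancer (cholangiocarcinoma) line QBC-939. Members were the genes with a protein-coding transcript whose symbol begins with EIF or EEF and a digit, without the EIF2AK kinases and without hyphenated read-through or antisense symbols. This gave 64 of the 30923 genes in the table, 50 of them initiation and 14 of them elongation genes, from 15591 genes with a protein-coding transcript. Per the treatment labels, 1 library came from cells overexpressing miR-182-5p, 1 from cells overexpressing miR-183-5p and 1 from cells with the overexpression control NC, and the genotype is given as WT for all 3. The titles of both microRNA samples carry the ending "mim", and the labels give neither the sequence of NC nor a dose or time.

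Eukaryotic initiation factors bring the initiator tRNA, the small ribosomal subunit and the capped messenger RNA together, scan for the start codon and then release the ribosome to join its large subunit. Elongation factors carry aminoacyl-tRNAs into the ribosome and move it along the message codon by codon. Several of these messages start with a run of pyrimidines, through which growth signalling by mTOR is known to control their own translation, and cancer cells are known to depend on the cap-binding eIF4F complex.

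The microRNAs that define the groups are shown from RefSeq (GRCh38.p14, chromosome 7, minus strand), with the seed, positions 2 to 8 from the 5' end, in capitals. They lie at chr7:129770447-129770470 and chr7:129774967-129774988, in the order given, and their seeds are different.
miR-182-5p: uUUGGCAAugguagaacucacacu
miR-183-5p: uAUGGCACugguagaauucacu

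Total counts were 61709874, 67427313 and 64516706 with miR-182-5p, with miR-183-5p and with NC. Mitochondrially encoded genes took 16.7%, 16.1% and 13.5% of them in the same order. Of the markers of biliary epithelium, EPCAM, KRT19 and SOX9 had a mean FPKM of 175.8, 78.5 and 25.04 over the 3 libraries, whereas KRT7, a defining keratin of bile ducts, had only 1.26. The mesenchymal marker VIM averaged 0.579 FPKM, and PTPRC of leukocytes had 9, 0 and 0 counts. Differences are given as ratios of CPM (counts scaled to the library total) with an exact 95% interval in parentheses, which covers counting error only. With 1 library per group there was no replicate check and no p-value was computed. A gene was called lower or higher by size alone, at 1.2-fold or more (a ratio of 0.833 or less, or of 1.2 or more), among genes with a mean of at least 1 FPKM (fragments scaled to transcript length and library size, as deposited). In a bulk culture, fewer cells that express a gene and less of its RNA per cell cannot be told apart.

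Of the 64 members, 62 reached this level, 48 initiation and all 14 elongation genes. EIF4E3, an atypical cap-binding protein, had 0.585, 0.537 and 0.663 FPKM with miR-182-5p, with miR-183-5p and with NC. EIF4EBP3, an inhibitor of eIF4E, had 22, 13 and 27 counts and lies inside the read-through gene ANKHD1-EIF4EBP3. These 2 genes entered no count below.

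The 3 highest levels in every library were those of elongation factors. EEF1A1, which carries aminoacyl-tRNA to the ribosome, had 832, 963 and 1059.9 FPKM with miR-182-5p, with miR-183-5p and with NC. EEF2, the translocase, had 261, 297 and 319.9 FPKM, and EEF1G, a subunit of the eEF1A exchange factor, had 231, 259.7 and 296 FPKM. In each of these genes the miR-182-5p library was the lowest and the NC library the highest. The highest initiation genes in the NC library were EIF5A with 166, 204 and 222 FPKM, EIF4A1 with 88.1, 109 and 130.5 FPKM, and EIF4G1 with 106, 112 and 114 FPKM in the same order of libraries. Thus EIF4A1 stood above EIF4G1 in the NC library but below it in both microRNA libraries. This order leaves out reads assigned to the overlapping read-through gene SENP3-EIF4A1 and may depend on them. That gene had 28.7, 27.1 and 8.14 FPKM in the same order of libraries.

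**Figure D1:**
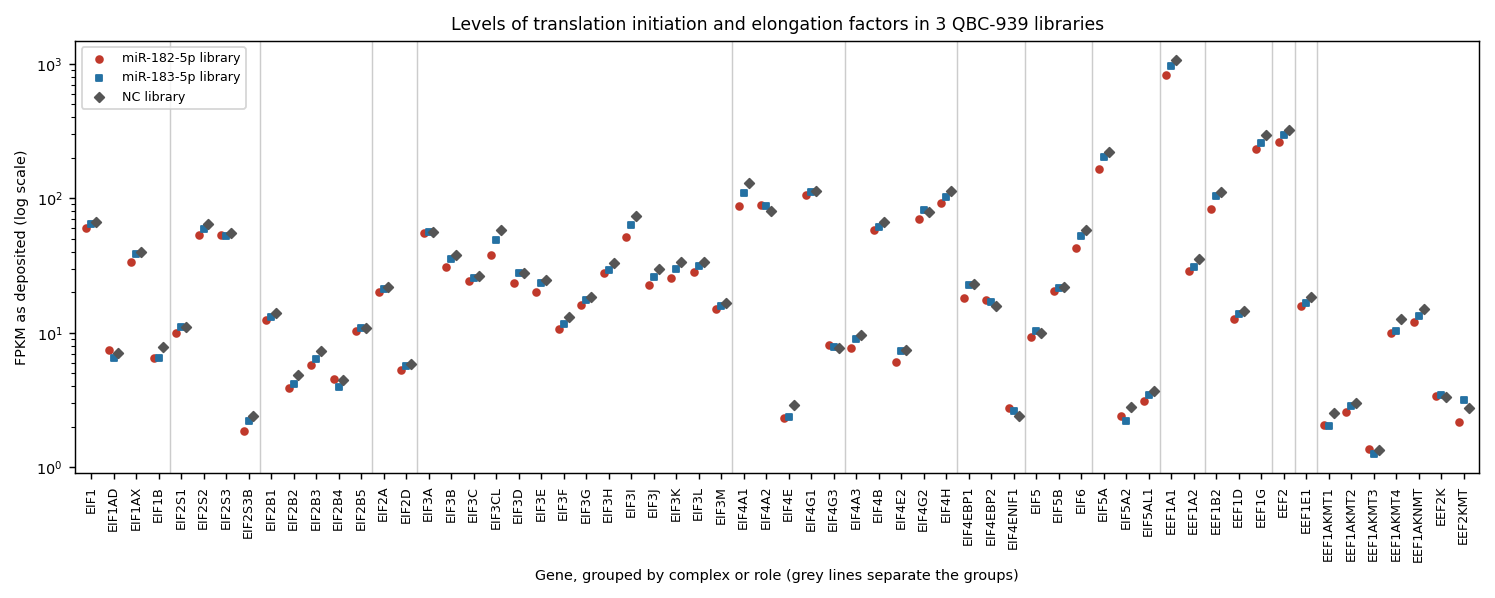
FPKM as deposited (log axis) of the 62 measured members in the miR-182-5p (circles), miR-183-5p (squares) and NC (diamonds) libraries, ordered by complex or role with grey lines between the groups, 1 point per library and no error bar since there is 1 library per group. Levels reach from 1.27 FPKM for EEF1AKMT3 to 1059.9 FPKM for EEF1A1 in the NC library, whose points rise over the libraries from 832 FPKM with miR-182-5p through 963 FPKM with miR-183-5p.

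With miR-182-5p the messages of most translation factors were lower than with NC. Of 48 initiation genes, 23 were lower by at least 1.2-fold and 0 were higher, with a median log2 ratio of -0.25. Of 14 elongation genes, 9 were lower and 0 higher, with a median of -0.32. Across all 12675 genes tested, 20.5% were lower and 22.1% higher, with a median of -0.02. Together 32 of 62 members (51.6%) were lower by this size, and 55 of 62 had a ratio below 1, with intervals wholly below 1 for 54 and wholly above 1 for 4. Over all genes 52.5% had a ratio below 1, and over genes with at least 20 FPKM 74.2%. Intervals lay wholly below 1 for 5017 and wholly above 1 for 4452 of the 12675 genes. Of the 1673 genes with at least 20 FPKM these counts were 1182 and 370, and of the 31 members at that level 30 and 1.

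The members are abundant messages, and abundant messages as a whole were lower in this library. Of the 1673 genes with a mean of at least 20 FPKM, 39.9% were lower by at least 1.2-fold with miR-182-5p than with NC and 8.07% higher, with a median log2 ratio of -0.20. Of the 31 members at that level, 20 were lower (64.5%) and 0 higher, with a median of -0.31. Read against genes past the same level, the members' share of lower genes was thus closer to the background than it was over all genes, and still above it.

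The choice of scaling moved these shares. With the counts scaled by the total without mitochondrial genes, 14 of 48 initiation and 7 of 14 elongation genes were lower, against 15.4% of all genes. The 11 members no longer past the size were EIF1AX, EIF1B, EIF2S2, EIF3B, EIF3D, EIF3F, EIF3L, EIF4E2, EIF4H, EEF1A2 and EEF2. With TMM scaling 28 and 11 were lower, against 27% of all genes. The split of lower to higher genes over all genes tested was 2601 to 2803 by CPM, 1946 to 3341 without mitochondrial genes, 3419 to 2346 by TMM and 3455 to 2333 by DESeq2 size factors. Under all 4 scalings 0 members were higher by 1.2-fold, and the members whose miR-182-5p ratio crossed 1 under any of them were EIF3A, EEF1AKMT3, EIF1AD, EIF2B4 and EEF2K.

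With miR-183-5p the differences ran in the same direction and were smaller. Of 48 initiation genes, 5 were lower than with NC by at least 1.2-fold and 0 higher, with a median log2 ratio of -0.11. Of 14 elongation genes, 2 were lower and 0 higher, with a median of -0.14. Over all genes 10.7% were lower and 10.5% higher, so the members' shares of 10.4% and 14.3% were near the background. Of genes with at least 20 FPKM, 7.95% were lower and 3.41% higher, against 2 of 31 members lower (6.45%) and 0 higher. Of the 62 members, 54 had a ratio below 1, with 45 intervals wholly below 1 and 4 wholly above 1. A ratio below 1 was found in 57.2% of all genes. Among genes with at least 20 FPKM it was found in 74.8%, against 29 of 31 members. Over all 12675 genes, 4735 intervals were wholly below 1 and 3108 wholly above 1. Of 1673 genes with at least 20 FPKM, 1104 were wholly below and 316 wholly above, and of the 31 members 26 and 2. Scaled by the total without mitochondrial genes, 48 of 62 members were below 1. By the same scaling 4 of 62 were lower by the size, against 7.67% of all genes. Both comparisons with NC use the same NC library, so they are not independent.

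The microRNA libraries were also set against each other, which leaves the NC library out. With miR-182-5p, 6 of 48 initiation and 2 of 14 elongation genes were lower than with miR-183-5p by at least 1.2-fold and 0 were higher, with median log2 ratios of -0.13 and -0.12. Over all genes 9.07% were lower and 16.2% higher in this comparison, with a median of 0.02. For genes of at least 20 FPKM the shares were 10.5% lower and 3.23% higher, against 7 of 31 members (22.6%) lower and 0 higher. Scaled by TMM, 15 initiation and 3 elongation genes were lower, against 16% of all genes.

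Of the 7 members past the size with miR-183-5p, EIF5A2 and EEF1AKMT1 had the lowest ratios, at 0.775 and 0.798, followed by EEF1AKMT4, EIF4E, EIF1B, EIF4A1 and EIF3CL at 0.799 to 0.828. Without mitochondrial genes in the total, EIF3CL, EIF4A1 and EIF1B were no longer past the size with miR-183-5p.

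**Figure D2:**
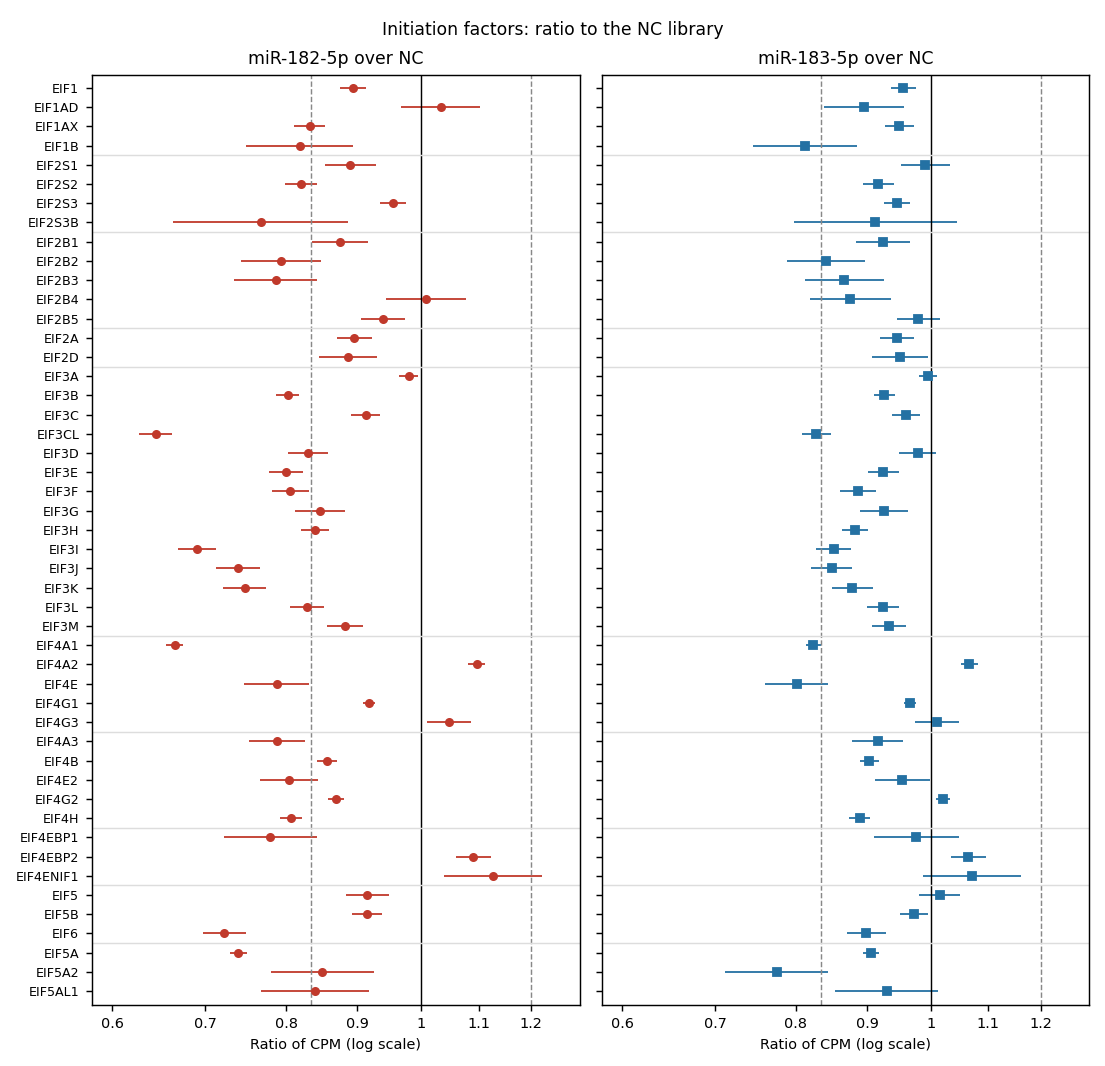
Ratio of CPM to the NC library (log axis) for the 48 measured initiation genes, miR-182-5p at the left and miR-183-5p at the right, with horizontal bars for the exact 95% counting interval, a solid line at 1 and dashed lines at the 1.2-fold size used for calls. With miR-182-5p 23 points lie at or left of the lower dashed line and 0 at or right of the upper one, and with miR-183-5p 5 points lie left of it.

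Among the factors that guard start-codon choice on the small subunit, EIF1AX (eIF1A) and EIF1B were lower with miR-182-5p by the 1.2-fold size. EIF1 had 257, 275 and 288 CPM with miR-182-5p, with miR-183-5p and with NC, a ratio to NC of 0.894 (0.875 to 0.913) with miR-182-5p. EIF1AX had 176, 200.5 and 211 CPM, a ratio of 0.832 (0.811 to 0.853), which is the called member nearest the size threshold. EIF1B, a close relative of EIF1, was at 14.7, 14.6 and 17.9 CPM, below NC by a like amount with both microRNAs (0.818 and 0.812). EIF1AD, which carries an eIF1A-type domain, differed in pattern, with 29.6, 25.6 and 28.6 CPM and the miR-183-5p library lowest. On the other side of the threshold, EIF5AL1 and EIF3H had ratios of 0.839 each with miR-182-5p.

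The eIF2 complex, which delivers the initiator tRNA, differed unequally over its subunits, with 2 of its 4 genes past the size under miR-182-5p. Across all genes 20.5% were lower by this size, and across genes with at least 20 FPKM 39.9%. The beta subunit EIF2S2 had 161, 180 and 196 CPM with miR-182-5p, with miR-183-5p and with NC, a ratio of 0.820 (0.799 to 0.842) with miR-182-5p. The alpha subunit EIF2S1, whose phosphorylation shuts down initiation under stress, had 64.7, 72.0 and 72.7 CPM, a ratio of 0.890 (0.853 to 0.928). The gamma subunit EIF2S3 had 258, 256 and 270.5 CPM, a ratio of 0.955 (0.934 to 0.975), so that the microRNA libraries were close to each other and both just below NC. EIF2S3B, a copy of the gamma subunit gene on chromosome 12, had 331, 430 and 451 counts, a ratio of 0.767 (0.664 to 0.886). Reads of near-identical copies may be split between genes, and for EIF2S3 and EIF2S3B summed the ratio was 0.9499 (0.930 to 0.970).

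The 5 subunits of eIF2B, which reloads eIF2 with GTP, spanned 0.787 to 1.01 with miR-182-5p. EIF2B3 had 23.5, 25.9 and 29.9 CPM and EIF2B2 had 25.3, 26.8 and 31.8 CPM with miR-182-5p, with miR-183-5p and with NC, ratios of 0.787 (0.734 to 0.842) and 0.794 (0.742 to 0.848). EIF2B1 and EIF2B5 had ratios of 0.874 and 0.939. EIF2B4 had another pattern, with 28.7, 24.9 and 28.4 CPM, level with NC under miR-182-5p at 1.01 (0.944 to 1.08) and below it under miR-183-5p at 0.875 (0.819 to 0.936). EIF2A and EIF2D, which can bring initiator tRNA without eIF2, had ratios of 0.896 and 0.886 with miR-182-5p and of 0.945 and 0.951 with miR-183-5p.

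The eIF3 complex, the large scaffold that recruits the small subunit to the message, contributed 9 of the 23 lower initiation genes. This was 64.3% of its 14 genes, against 20.5% of all genes and 39.9% of genes with at least 20 FPKM. All 14 of its genes had ratios below 1 with miR-182-5p, from 0.645 for EIF3CL to 0.980 for EIF3A, with a median log2 ratio of -0.29. Without mitochondrial genes in the total, EIF3A crossed 1 and 5 of 14 were lower by 1.2-fold, against 15.4% of all genes. EIF3I, a WD-repeat subunit, had 106, 130.5 and 153 CPM with miR-182-5p, with miR-183-5p and with NC, a ratio of 0.690 (0.669 to 0.712). EIF3J, a loosely bound subunit, had 83.5, 96.0 and 113 CPM, a ratio of 0.739 (0.713 to 0.766). EIF3K, at the edge of the complex, had 84.8, 99.7 and 113.5 CPM, a ratio of 0.747 (0.721 to 0.774). In these 3 genes the libraries stood from miR-182-5p through miR-183-5p to NC, with miR-183-5p about midway.

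EIF3A, the large scaffold subunit, had 468, 475 and 478 CPM and was thus nearly level across the libraries. The other called subunits were EIF3B, EIF3D, EIF3E, EIF3F and EIF3L, with ratios of 0.800 to 0.830, and the uncalled EIF3G, EIF3H, EIF3M and EIF3C had 0.839 to 0.913. With miR-183-5p the 14 ratios ran from 0.828 for EIF3CL to 0.995 for EIF3A, with EIF3CL alone past the size. By TMM, or without mitochondrial genes in the total, EIF3CL was not past it either, and EIF3A and, in the second case, EIF3D crossed 1. The subunit levels themselves ran from 10.6 to 55.6 FPKM with miR-182-5p, 11.7 to 63.9 FPKM with miR-183-5p and 13.0 to 73.9 FPKM with NC.

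EIF3C (chr16:28688558-28735727, plus strand) and EIF3CL (chr16:28379579-28403841, minus strand) encode almost the same protein, so the assignment of reads between them is uncertain. EIF3CL had 138, 177 and 214 CPM with miR-182-5p, with miR-183-5p and with NC, the lowest miR-182-5p ratio of the measured members at 0.645 (0.628 to 0.663). EIF3C had 201, 211 and 220.3 CPM, a ratio of 0.913 (0.891 to 0.935). Summed, the pair had 20918, 26184 and 28013 counts, a ratio of 0.781 (0.767 to 0.795) with miR-182-5p and 0.894 (0.879 to 0.910) with miR-183-5p. The summed miR-182-5p value remained past the 1.2-fold size and the summed miR-183-5p value did not.

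Within eIF4F, which binds the cap and unwinds the leader, the helicase paralogs differed from NC in opposite directions. EIF4A1, the main helicase (chr17:7572824-7579006, plus strand, coordinates as deposited), had 543, 671 and 815 CPM with miR-182-5p, with miR-183-5p and with NC, a ratio of 0.665 (0.656 to 0.675) with miR-182-5p and 0.823 (0.813 to 0.834) with miR-183-5p. EIF4A2, its paralog (chr3:186783205-186789897, plus strand), had 652, 634 and 595 CPM, a ratio of 1.097 (1.08 to 1.11) with miR-182-5p and 1.07 (1.05 to 1.08) with miR-183-5p. The level of EIF4A1 over that of EIF4A2, in FPKM, was 0.981 with miR-182-5p, 1.25 with miR-183-5p and 1.62 with NC. By the deposited assignment the paralogs were thus about equal under miR-182-5p. These level ratios leave out reads assigned to the overlapping SENP3-EIF4A1, so the near equality may depend on that assignment.

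Reads of EIF4A1 may have been assigned to genes that overlap it. The read-through gene SENP3-EIF4A1, on the same strand, had 7382, 7613 and 2222 counts with miR-182-5p, with miR-183-5p and with NC, 3.47 (3.31 to 3.64) and 3.28 (3.13 to 3.44) times NC with the microRNAs. EIF4A1 and SENP3-EIF4A1 together had 40863, 52873 and 54833 counts, a ratio of 0.779 (0.769 to 0.789) with miR-182-5p and 0.923 (0.912 to 0.934) with miR-183-5p. The miR-182-5p difference therefore remained past the 1.2-fold size in the sum, and the miR-183-5p difference did not. Another gene on that strand, AC016876, had 2910, 3250 and 1809 counts, and the labels do not say how the authors counted reads that fit several genes.

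**Figure D3:**
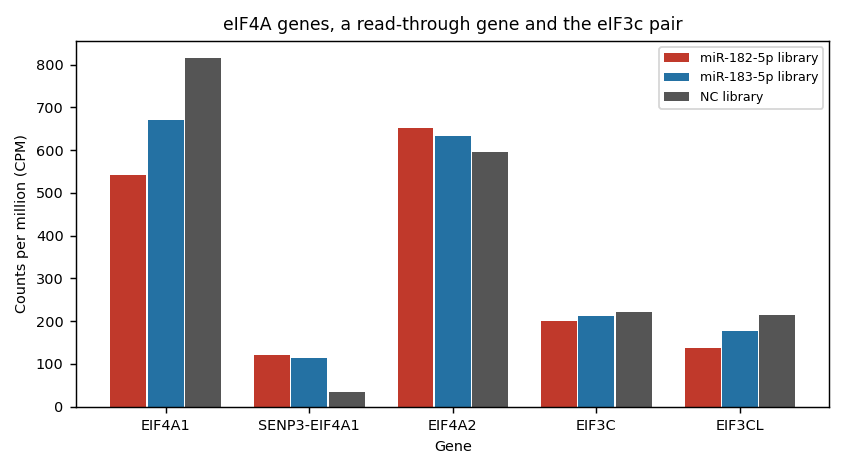
CPM with miR-182-5p, with miR-183-5p and with NC (bars from left to right, axis from 0, 1 library each and no error bar) for EIF4A1, the overlapping SENP3-EIF4A1, the paralog EIF4A2, and the near-identical EIF3C and EIF3CL. EIF4A1 steps up over the 3 libraries to 815 CPM with NC while SENP3-EIF4A1 and EIF4A2 are lowest with NC, and EIF3CL differs more between libraries than EIF3C.

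EIF4E, the cap-binding subunit, was low in FPKM and was lower with both microRNAs by the 1.2-fold size. It had 38.9, 39.6 and 49.4 CPM with miR-182-5p, with miR-183-5p and with NC, ratios of 0.788 (0.747 to 0.831) and 0.801 (0.760 to 0.843), and 0.983 (0.930 to 1.04) between the microRNA libraries. The scaffold EIF4G1 had 1103, 1162 and 1202 CPM, a ratio of 0.918 (0.908 to 0.927) with miR-182-5p, and its paralog EIF4G3 had 92.8, 89.6 and 88.6 CPM, a ratio of 1.05 (1.01 to 1.09). EIF4G2, a relative that lacks the eIF4E-binding site, had 701, 823 and 807 CPM, below NC with miR-182-5p at 0.869 (0.858 to 0.880) and slightly above it with miR-183-5p at 1.02 (1.01 to 1.03).

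Of the cofactors that stimulate the helicase, EIF4H passed the size with miR-182-5p and EIF4B did not. EIF4H had 349, 385 and 433 CPM and EIF4B 415, 438 and 485 CPM with miR-182-5p, with miR-183-5p and with NC, ratios of 0.806 (0.792 to 0.821) and 0.856 (0.842 to 0.871) with miR-182-5p. EIF4A3, the helicase of the exon junction complex, and EIF4E2, an alternative cap-binding protein that represses translation, had ratios of 0.788 (0.753 to 0.825) and 0.804 (0.766 to 0.844). With miR-183-5p these 4 genes had ratios of 0.889 to 0.954, none past the size.

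The proteins that hold eIF4E away from eIF4G differed in direction. EIF4EBP1, which mTOR inactivates by phosphorylation, had 18.9, 23.7 and 24.2 CPM with miR-182-5p, with miR-183-5p and with NC, a ratio of 0.779 (0.722 to 0.841) with miR-182-5p and 0.976 (0.910 to 1.05) with miR-183-5p. EIF4EBP2 had 155, 151 and 142 CPM, ratios of 1.09 (1.06 to 1.12) and 1.06 (1.03 to 1.09). EIF4ENIF1, which takes eIF4E into the nucleus and into processing bodies, had 19.98, 18.98 and 17.73 CPM, ratios of 1.13 (1.04 to 1.22), the highest of the measured members with miR-182-5p, and 1.07 (0.988 to 1.16). The differences above NC were all under 1.2-fold. In FPKM, EIF4EBP2 stood at 7.49, 7.19 and 5.41 times EIF4E with miR-182-5p, with miR-183-5p and with NC. EIF4EBP1 stood at 7.76, 9.56 and 7.85 times EIF4E. These multiples rest on the transcript lengths behind FPKM, which are not given. In CPM, EIF4E had 38.9, 39.6 and 49.4 in the same order, above EIF4EBP1 and below EIF4EBP2 in every library.

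Of the late factors, EIF6, which keeps the large subunit from joining too early, differed most. EIF6 had 82.3, 102 and 114 CPM with miR-182-5p, with miR-183-5p and with NC, a ratio of 0.722 (0.697 to 0.749) with miR-182-5p and 0.899 (0.870 to 0.929) with miR-183-5p. EIF5, which triggers GTP hydrolysis on eIF2, and EIF5B, which joins the subunits, both had a ratio of 0.915 with miR-182-5p. With miR-183-5p their ratios were 1.01 and 0.973.

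EIF5A, the hypusine-carrying factor that helps ribosomes past difficult sequences, had 529.7, 649.6 and 717 CPM with miR-182-5p, with miR-183-5p and with NC. Its ratio was 0.739 (0.728 to 0.749) with miR-182-5p and 0.906 (0.894 to 0.918) with miR-183-5p. The paralog EIF5A2 had 15.9, 14.5 and 18.8 CPM, with the miR-183-5p library lowest: 0.850 (0.780 to 0.925) with miR-182-5p and 0.775 (0.712 to 0.844) with miR-183-5p, the lowest miR-183-5p ratio of the measured members. The level of EIF5A was 68.6, 92.2 and 78.8 times that of EIF5A2 in FPKM. EIF5AL1, a copy of EIF5A with 878, 1063 and 1094 counts, left the sum with EIF5A at 0.741 (0.731 to 0.752) with miR-182-5p.

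**Figure D4:**
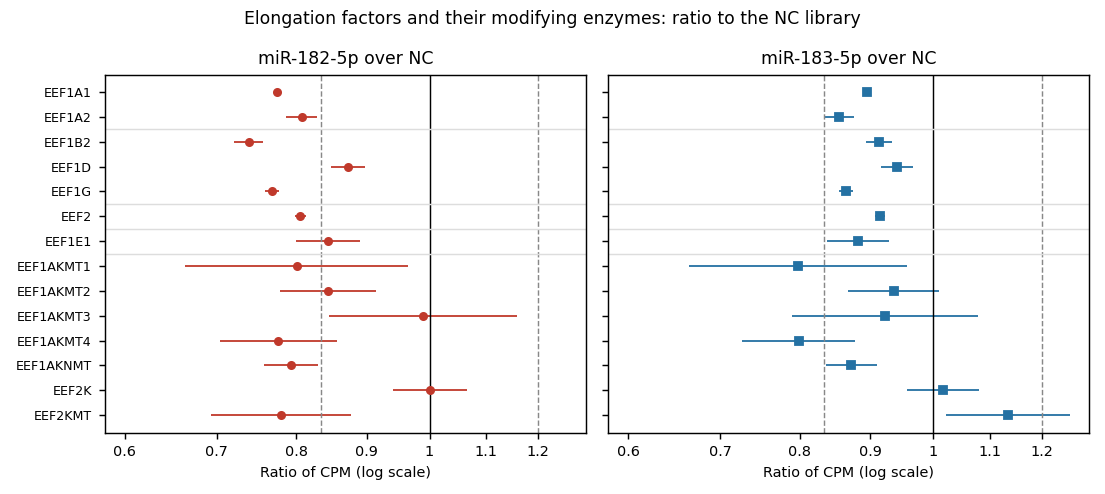
Ratio of CPM to the NC library (log axis) for the 14 elongation genes, miR-182-5p at the left and miR-183-5p at the right, with exact 95% counting intervals as bars, a solid line at 1 and dashed lines at the 1.2-fold size. The 6 elongation factors proper all lie left of 1 in both panels, with miR-182-5p further left, and EEF2KMT lies on opposite sides of 1 in the panels.

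All 6 elongation factors proper were below NC with both microRNAs. With miR-182-5p 5 of them passed the 1.2-fold size (83.3%), against 20.5% of all genes and 52.9% of genes with at least 100 FPKM. Of the 6, EEF1A2 and EEF1D were not at that level, with means of 31.8 and 13.7 FPKM. In their ranges, 20 to 50 and 5 to 20 FPKM, 35.8% and 21.5% of all genes were lower. EEF1A1 (chr6:73515750-73521900, minus strand) had 5397, 6242 and 6971 CPM with miR-182-5p, with miR-183-5p and with NC, a ratio of 0.774 (0.771 to 0.778) with miR-182-5p and 0.895 (0.892 to 0.899) with miR-183-5p. It alone took 0.540%, 0.624% and 0.697% of the counts of these libraries. EEF1A2, the form known from muscle and neurons, had 166, 176 and 206 CPM, ratios of 0.807 (0.786 to 0.828) and 0.855 (0.834 to 0.877). The level of EEF1A1 over EEF1A2 in FPKM was 28.7, 31.3 and 29.9, so the pair kept nearly the same proportion.

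EEF1A1 has many processed copies in the genome, to which reads may be assigned. The 12 EEF1A1 pseudogenes of the table had 29634, 35381 and 40529 counts with miR-182-5p, with miR-183-5p and with NC. Summed with them, EEF1A1 had ratios of 0.773 (0.770 to 0.777) with miR-182-5p and 0.890 (0.887 to 0.894) with miR-183-5p, close to those of the gene alone.

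In the exchange complex that recharges eEF1A, 2 of 3 subunits passed the size with miR-182-5p. Across all genes 20.5% were lower by this size, and across genes with at least 20 FPKM 39.9%. EEF1B2, the catalytic beta subunit, had 191, 236 and 258 CPM with miR-182-5p, with miR-183-5p and with NC, a ratio of 0.738 (0.721 to 0.756) with miR-182-5p and 0.914 (0.894 to 0.934) with miR-183-5p. EEF1G, the gamma subunit, had 721, 811 and 939 CPM, ratios of 0.768 (0.759 to 0.777) and 0.864 (0.854 to 0.874). EEF1D, the delta subunit, had 142, 154 and 163 CPM, ratios of 0.873 (0.848 to 0.898) and 0.941 (0.916 to 0.967), the smallest difference of the complex. EEF1G overlaps the gene AP002990 on its strand, and the 2 genes summed had 0.778 (0.769 to 0.788) with miR-182-5p.

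EEF2 had 1245, 1415 and 1546 CPM with miR-182-5p, with miR-183-5p and with NC, a ratio of 0.805 (0.798 to 0.813) with miR-182-5p and 0.915 (0.907 to 0.923) with miR-183-5p. Its kinase EEF2K, which blocks eEF2 by phosphorylation, had 32.2, 32.7 and 32.1 CPM and was level across the libraries, at 1.002 (0.941 to 1.07) and 1.02 (0.958 to 1.08). With miR-182-5p the counting intervals of the factor and its kinase do not overlap, but their levels differ, at a mean of 293 and 3.38 FPKM. In this comparison the median log2 ratio of all genes was -0.28 at 100 FPKM and above and 0.09 at 1 to 5 FPKM. Whether factor and kinase differ beyond their levels was not tested. EEF1E1, a scaffold protein of the multi-tRNA synthetase complex, had 39.3, 41.1 and 46.6 CPM, ratios of 0.844 (0.800 to 0.891) and 0.882 (0.837 to 0.929).

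The methyltransferases that modify eEF1A and eEF2 were low in level, at 1.27 to 15.1 FPKM in any library. EEF2KMT, which methylates eEF2, had 8.12, 11.8 and 10.4 CPM with miR-182-5p, with miR-183-5p and with NC, below NC with miR-182-5p at 0.779 (0.693 to 0.876) and above it with miR-183-5p at 1.13 (1.02 to 1.26). Between the microRNA libraries its ratio of 0.688 (0.614 to 0.770) was the lowest of the measured members. EEF1AKMT4 and EEF1AKMT1 were lower with both microRNAs, with ratios of 0.776 and 0.801 under miR-182-5p and 0.799 and 0.798 under miR-183-5p. EEF1AKNMT had a ratio of 0.793 (0.758 to 0.829) with miR-182-5p, and EEF1AKMT2 and EEF1AKMT3 had 0.843 and 0.989.

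Between the microRNA libraries the members past the size, all lower with miR-182-5p, were EEF2KMT, EIF3CL, EIF4EBP1, EIF6, EEF1B2, EIF4A1, EIF3I and EIF5A, from 0.688 to 0.815. At the other end EIF1AD and EIF2B4 were higher with miR-182-5p than with miR-183-5p at 1.15 each, with intervals of 1.08 to 1.23 for both.

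**Figure D5:**
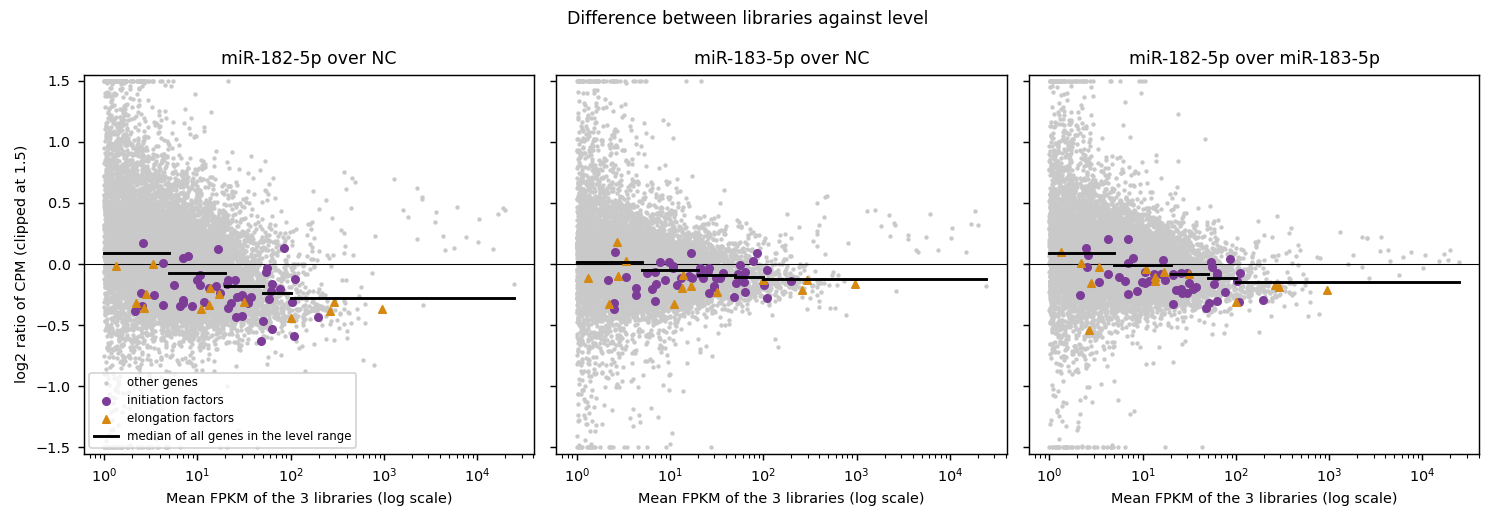
Log2 ratio of CPM (clipped at 1.5 in either direction) against mean FPKM of the 3 libraries (log axis) for miR-182-5p over NC, miR-183-5p over NC and miR-182-5p over miR-183-5p, with other genes in grey, initiation genes as circles, elongation genes as triangles and black lines for the median of all genes in each range of level. In the left panel the black line steps down with level, to -0.28 at 100 FPKM and above, and most coloured points lie below it.

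The relation to level was described by ranges of mean FPKM. For miR-182-5p against NC the median log2 ratio of all genes was 0.09 at 1 to 5 FPKM, -0.07 at 5 to 20, -0.18 at 20 to 50, -0.24 at 50 to 100 and -0.28 at 100 and above. For the members it was -0.25, -0.20, -0.29, -0.20 and -0.38 in the same ranges, with 12, 19, 14, 9 and 8 genes. The members were thus lower than the median of all genes in 4 of these ranges, most so at low level, but not at 50 to 100 FPKM. For miR-183-5p the corresponding medians were 0.01, -0.05, -0.09, -0.11 and -0.12 for all genes and -0.12, -0.11, -0.11, -0.08 and -0.15 for members. Across the 62 members, which share libraries, the log2 ratio and the log2 level had a Pearson r of -0.28 and a Spearman rho of -0.23 for miR-182-5p against NC, and of 0.00 each for miR-183-5p against NC.

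Members whose messages are known to begin with a 5' terminal oligopyrimidine tract were compared with the others. Of 11 such genes, 10 of them members, 6 were lower by at least 1.2-fold with miR-182-5p and 0 with miR-183-5p, with median log2 ratios of -0.31 and -0.13. Among all genes 20.5% and 10.7% were lower, and among genes with at least 20 FPKM 39.9% and 7.95%. The gene that is not a member, PABPC1, which binds the poly(A) tail, had a ratio of 0.986 (0.974 to 0.997) with miR-182-5p. Of the 52 members outside the list, 26 were lower with miR-182-5p and 7 with miR-183-5p, with medians of -0.26 and -0.11. The listed members thus had medians within 0.1 of the others.

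The RefSeq transcription start was also read for members with an entry in the promoter table. A pyrimidine start was counted where the start base is C and at least 4 more C or T follow without a gap, on the coding strand alone since the run belongs to the transcript. Of 49 measured members with an entry, 13 had such a start (26.5%), against 685 of 8912 tested genes (7.69%) and 4.07% of all 35116 promoters in the table. Among members on the list of known terminal oligopyrimidine messages, EEF1A1, EEF1B2, EEF2, EIF3F and EIF4B had such a start. EEF1G, also on that list, had no such run at its RefSeq start. Windows of 20 bases before and 10 bases after the start (GRCh38.p14, coding strand, 5' to 3', with the pyrimidine run in capitals) are shown for members with unlike ratios, at chr6:73521023-73521052 (minus strand), chr2:206159875-206159904 (plus), chr19:3985454-3985483 (minus), chr19:38619168-38619197 (plus) and chr3:186783557-186783586 (plus). The run of EEF1B2 is 16 bases long and goes past the window, of which it fills the last 10 bases, and this gene has another start in the table without such a run.
EEF1A1: cagtagtcgccgtgaacgttCTTTTTCgca
EEF1B2: attttccggtctcttcgggtCCTTTTTCCT
EEF2: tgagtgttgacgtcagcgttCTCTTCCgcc
EIF3K: gtcgtttccgtttccaccacCTCTTCCTgt
EIF4A2: gggtggttgggcgccgctgtCTTTTCagtc

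Of these 5 genes, the first 4 were lower by at least 1.2-fold with miR-182-5p, whereas EIF4A2 was at 1.097. The 5 are a choice from the 13 members with a pyrimidine run at the start, of which 7 were lower by this size. EIF4A1, the lower of the helicase paralogs, has no such run at its RefSeq start (chr17:7572805-7572834, plus strand).
EIF4A1: tcgataggcgggcactccgccctagtttct

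Over all 49 members, those with a pyrimidine start had a median log2 ratio of -0.27 with miR-182-5p (7 of 13 lower by 1.2-fold), against -0.25 for those without (17 of 36). Across all genes 20.5% were lower by this size, and across genes with at least 20 FPKM 39.9%. The share among all tested genes with a pyrimidine start was not computed. With miR-183-5p the medians were -0.13 and -0.12. The members with a pyrimidine start were the more abundant ones, with a median of 29.8 FPKM against 12.1 FPKM.

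Matches to the seeds were counted in the longest annotated 3' UTR of each gene (GENCODE release 29, GRCh38). The match to positions 2 to 8 is TTGCCAA for miR-182-5p and GTGCCAT for miR-183-5p, sought on the strand of the message. A miR-182-5p match was present in 6 of 62 measured members (9.68%), EIF2S1, EIF3A, EIF3H, EIF4B, EIF5 and EIF5A2, against 1608 of 10601 genes searched (15.2%). None of the 6 was lower by 1.2-fold with miR-182-5p, against 32 of the 56 members without a match and 20.5% of all genes. The median log2 ratio of the 6 was -0.20, against -0.29 for members without a match. This count depends on the scaling: by TMM 39 of 62 members were lower, among them EIF3H, EIF4B and EIF5A2. The share of lower genes among all genes with a match was not computed. A miR-183-5p match was present in 5 of 62 members (8.06%), EEF2, EIF2B2, EIF2S1, EIF3A and EIF3H, against 1289 genes (12.2%). With miR-183-5p 0 of these 5 and 7 of the other 57 were lower by 1.2-fold, against 10.7% of all genes. The medians were -0.13 and -0.11.

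The matches of EIF3A and EIF2S1, which hold both kinds, of EIF5A2 and of EEF2, which holds a repeated match, are shown with their surroundings, a choice made after the values were seen (GRCh38, message strand, 5' to 3', match in capitals). The EIF3A matches lie at chr10:119035330-119035336 and chr10:119034946-119034952 (minus strand), and those of EIF2S1 at chr14:67386085-67386091 and chr14:67384788-67384794 (plus strand). The EIF5A2 match lies at chr3:170889125-170889131 (minus strand), and EEF2 has 2 matches, at chr19:3976412-3976418 and chr19:3976084-3976090 (minus strand).
EIF3A, miR-182-5p match: agtttttttctgTTGCCAAtag
EIF3A, miR-183-5p match: gaatttttatcaGTGCCATtaa
EIF2S1, miR-182-5p match: tgaggtacactgTTGCCAAttt
EIF2S1, miR-183-5p match: gtttctgagagaGTGCCATgat
EIF5A2, miR-182-5p match: gaaacatacttgTTGCCAActt
EEF2, miR-183-5p match, upstream: ggggcccgctgcGTGCCATcac
EEF2, miR-183-5p match, downstream: ccagctgtactaGTGCCATtgg

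EIF3A, with a match to each seed, was the eIF3 gene nearest to NC in both comparisons, at 0.980 and 0.995. EIF2S1, also with both, was at 0.890 with miR-182-5p and 0.991 with miR-183-5p. EIF3H, the remaining member with both, was further below NC, at 0.839 (0.820 to 0.859) and 0.882 (0.863 to 0.902), and EIF2B2, with a miR-183-5p match, was at 0.841 with miR-183-5p. EIF5A2, with a miR-182-5p match, was lower with miR-183-5p than with miR-182-5p. A match is only a run of letters in this window and shows no binding.

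Other genes of the translation pathway, 43 measured of 46 listed (initiation kinases, mTOR signalling, release, recycling, hypusine and diphthamide synthesis, and mitochondrial factors), had medians nearer 0 than the members. With miR-182-5p 13 were lower by at least 1.2-fold (30.2%, against 20.5% of all genes) and 2 higher, with a median log2 ratio of -0.15. With miR-183-5p 3 were lower (6.98%, against 10.7% of all genes) and 1 higher, with a median of -0.06. DOHH, which completes the hypusine of EIF5A, had 798, 1057 and 1299 counts with miR-182-5p, with miR-183-5p and with NC, the lowest miR-182-5p ratio of the list at 0.642 (0.587 to 0.702), and 0.779 with miR-183-5p. ABCE1, which recycles ribosomes, had a ratio of 0.700 (0.673 to 0.728) with miR-182-5p, and the mitochondrial elongation factor TSFM had 0.722 and, with miR-183-5p, 0.777. DHPS, which carries out the preceding step of hypusine synthesis, was at 1.15 (1.04 to 1.27) with miR-182-5p, so the genes of the pathway differed in direction.

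The highest ratios of that list with miR-182-5p were those of PAIP2B, an inhibitor of the poly(A)-binding protein, at 1.36 (1.26 to 1.47), MKNK1, a kinase of eIF4E, at 1.24 (1.18 to 1.31), and DPH7, of diphthamide synthesis on eEF2, at 1.16. With miR-183-5p PAIP2B was again highest at 1.25, followed by the mitochondrial initiation factor MTIF3 at 1.12 and SECISBP2, of selenocysteine insertion, at 1.09, and DPH3 was among the lowest at 0.813.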

How the data were processed

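One table of genes was used, with whole-number counts and FPKM for each of 3 libraries of total RNA extracted with Trizol, per the labels. The counts were made and deposited by the authors and are not normalised. FPKM (scaled to transcript length and library size) stands in further columns of that deposited table, per the file headers, with no word on how it or the counts were made. The submitters' processing notes name cutadapt 1.9 and FastQC and give the build GRCm38, a mouse assembly, although all 30923 identifiers are human Ensembl identifiers and the coordinates of all 64 members overlap their own gene in GENCODE release 29 on GRCh38. The sources used here name no aligner, counter or annotation release and do not say how strand was treated, so reads of overlapping genes cannot be told apart: 22 members overlap another gene on the same strand and 31 on the opposite strand.

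CPM was computed from the counts over the library total, and the ratio of CPM between libraries with an exact 95% interval (Clopper-Pearson on the share of the 2 counts). Deposited FPKM and CPM gave the same log2 ratios apart from a constant, 0.02 in both comparisons with NC and under 0.001 in size between the microRNAs (SD up to 0.0024 over 12171 genes). Levels were compared between genes by FPKM alone. Genes named were the 6 lowest and 6 highest ratios per comparison, the 6 highest levels, the subunits of eIF2, eIF2B, eIF3, eIF4F and eEF1 and the paralog pairs; others were named after their values were seen. The members, lists and rules were chosen with earlier results of these data known. Alternatives were other scalings (edgeR 4.0.16 TMM, DESeq2 1.42.0 size factors, the total without mitochondrial genes), FPKM ratios, other filters and other sizes of call. The calculation was tested on simulated data.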

Additional observations from a re-analysis of the deposited data

How the results depend on the processing

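No paired analysis was possible because each group has 1 library, and none could be left out. Medians of initiation and elongation genes stayed below 0 under every setting tried. Of the summary values (counts and medians) under other settings, 160 stayed close to the reported value and 44 moved. These values include the counts of higher members, which were 0 in every comparison, and a 0 that stayed 0 was taken as close. At 1.5-fold such a 0 was fixed in advance, since 0 members were higher by 1.2-fold. The tally is therefore no measure of how stable the counts of lower genes were. For miR-182-5p against NC the 23 lower initiation genes became 14 without mitochondrial genes in the total, 14 on the log2(FPKM + 1) scale, 15 of 32 without members that overlap a gene on their strand, 35 at 1.1-fold (with 1 higher), 2 at 1.5-fold and 15 of 26 at 20 FPKM or more. The 9 lower elongation genes became 5 of 9 without overlaps, 0 at 1.5-fold and 5 of 5 at 20 FPKM or more. Median log2 ratios became -0.38 for elongation by TMM and by DESeq2 size factors, and -0.31 for initiation by DESeq2 size factors.

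For miR-183-5p against NC the 5 lower initiation genes became 2 without mitochondrial genes (median -0.069), 3 by FPKM, 0 on the log2(FPKM + 1) scale, 3 at 5 FPKM or more, 2 without overlaps, 18 at 1.1-fold, 0 at 1.5-fold and 2 at 20 FPKM or more. The 2 lower elongation genes became 1 on the log2(FPKM + 1) scale, at 5 FPKM or more and without overlaps, 7 at 1.1-fold (with 1 higher), and 0 at 1.5-fold and at 20 FPKM or more. For miR-182-5p against miR-183-5p the 6 lower initiation genes became 15 by TMM and by DESeq2 (median -0.20 each), 3 without overlaps, 24 at 1.1-fold (with 2 higher) and 0 at 1.5-fold, with 1 higher without the filter and a median of -0.18 at 20 FPKM or more. The 2 lower elongation genes became 1 at 5 FPKM or more, without overlaps and at 20 FPKM or more, 6 at 1.1-fold and 0 at 1.5-fold. The setting of 20 FPKM, the sums with pseudogene copies and the read-through sums were chosen after seeing the data. The log2(FPKM + 1) scale lowers the difference of low genes by construction, and the cause of the other shifts was not tested.

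The main limit is 1 library per group: intervals cover counting error and no difference between cultures. The few counts of EIF2S3B, EEF1AKMT1 and EEF1AKMT3 give intervals too wide for an order among them. RNA levels say nothing of protein or of translation rate.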

Other observations

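Some hyphenated loci, which the choice of members left out, had higher counts with the microRNAs than with NC. ANKHD1-EIF4EBP3, the read-through gene around EIF4EBP3, had 9012, 10554 and 6345 counts with miR-182-5p, with miR-183-5p and with NC, 1.48 (1.44 to 1.53) and 1.59 (1.54 to 1.64) times NC with the microRNAs. EIF3J-DT, a noncoding transcript beside EIF3J, had 646, 493 and 469 counts, at 1.44 (1.28 to 1.63) with miR-182-5p and 1.01 (0.885 to 1.14) with miR-183-5p, whereas EIF3J itself was at 0.739 and 0.849. EIF2AK3-DT, named after the kinase gene EIF2AK3, had 141, 133 and 71 counts, at 2.08 (1.5502 to 2.80) and 1.79 (1.33 to 2.43). EIF1AX-AS1, with 2, 10 and 3 counts, and EIF1B-AS1, with 22, 6 and 4 counts, were at few counts throughout.

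The eIF2 kinases, which halt initiation under stress and were left out of the members, showed no common direction. EIF2AK1, the heme-regulated kinase, was at 0.842 (0.818 to 0.866) with miR-182-5p and 0.891 with miR-183-5p. EIF2AK2, activated by double-stranded RNA, was at 1.08 (1.04 to 1.11) and 0.996. EIF2AK3, of the endoplasmic reticulum, was at 1.07 (1.01 to 1.14) and 1.03, and EIF2AK4, the sensor of amino acid shortage, at 0.952 (0.895 to 1.01) and 1.02. None of these 4 kinases passed the 1.2-fold size.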
